A study of Mus musculus with 4 samples.

Results

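Chemokine and chemoattractant receptors were followed here in peritoneal macrophages labelled Dnmt1fl/fl and Dnmt1KO: Ccr1, Ccr2, Cx3cr1, Cxcr4, Ccrl2, Fpr1, Fpr2, Cmklr1 and S1pr1. The members were chosen by gene symbol, by a rule that uses no measured value, and all 9 were found among the 13834 genes of the count table. Bulk RNA-seq was made from thioglycolate-elicited peritoneal macrophages of 2 genotypes, with 2 libraries each. The Dnmt1fl/fl libraries, which the labels also call wt, came from mice carrying loxP-flanked Dnmt1, and the Dnmt1KO libraries came from mice in which the same floxed gene was combined with Cre under the LysM promoter, which is active in myeloid cells in general and not in macrophages alone. The study's methods give mice of 10 weeks, injected intraperitoneally with thioglycolate broth 3 days before the peritoneal cells were collected, and put in culture medium after collection, while the labels give the treatment as isolation alone. Neither the labels nor the methods tie the replicates to separate mice, so every p-value below measures only the spread between these libraries, which may be technical. The comparison addresses how far myeloid targeting of Dnmt1, the enzyme that copies DNA methylation onto the newly made strand after replication, goes with a different set of receptors for migration cues on the macrophage.

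Most chemoattractant receptors are 7-transmembrane receptors that signal through Gi proteins, and the gradient of ligand that a cell senses through them sets the direction in which it crawls. In the mouse, Ccr2 is known for the exit of monocytes from the bone marrow and their entry into inflamed sites, Cx3cr1 marks patrolling monocytes and many tissue macrophages, and the formyl peptide receptors Fpr1 and Fpr2 detect bacterial and mitochondrial peptides on neutrophils and monocytes. Thioglycolate broth draws neutrophils and then monocytes into the peritoneal cavity, so these receptors are usual subjects of study in elicited peritoneal cells.

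The libraries held 20228071 and 24198943 counts in Dnmt1fl/fl replicates 1 and 2 and 21767795 and 22611219 counts in Dnmt1KO replicates 1 and 2. Values are given as CPM, counts per 1000000 counts of the library after TMM scaling. A floor of 3 counts equalled between 0.120 and 0.151 CPM, which covers counting error only, and every receptor lay far above it in every library. Dnmt1 itself measured 86.6 and 67.0 CPM in Dnmt1fl/fl and 37.0 and 42.7 CPM in Dnmt1KO, so both Dnmt1KO libraries lay below both Dnmt1fl/fl libraries. The Dnmt1KO mean was 51.9% of the Dnmt1fl/fl mean. The log2 fold change of -0.95 had an adjusted p = 1.00 over all genes in edgeR's quasi-likelihood test with Benjamini-Hochberg adjustment. These counts are for the gene as a whole, so RNA with and without the floxed part is not told apart. For the protein, the paper reports a significant reduction in Dnmt1KO peritoneal macrophages by western blot. The macrophage identity of the cells was checked with 8 markers, which were all detected and summed to between 6307 and 6801 CPM, led by Itgam (1785, 2206, 2094 and 1758 CPM) and Cd68 (1487, 1145, 1835 and 1306 CPM). In bulk RNA fewer cells of a type and less RNA per cell cannot be told apart.

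None of the receptors differed between the genotypes by the test. Of the 9, 0 passed an adjusted p of 0.05 (0% of the 12542 genes tested did so), and 0 had an unadjusted p under 0.05, against 35 genes or 0.279% of all tested. The genotypes overlapped for every member: 0 of 9 had both Dnmt1KO libraries on the same side of both Dnmt1fl/fl libraries, whereas 2094 genes, or 16.7% of those tested, did. The median log2 fold change of the receptors, Dnmt1KO over Dnmt1fl/fl, was -0.07, beside a median of 0.0046 over all genes tested. In edgeR's quasi-likelihood test the Benjamini-Hochberg adjusted p was 1.00 for each of the 9 receptors. What did vary was the level of some receptors between libraries of the same genotype: Cx3cr1, Fpr1 and Fpr2 stood at least 2-fold apart within Dnmt1fl/fl and again within Dnmt1KO, which held for 3 of the 9 members and for 394, or 3.14%, of all genes tested.

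**Figure D1:**
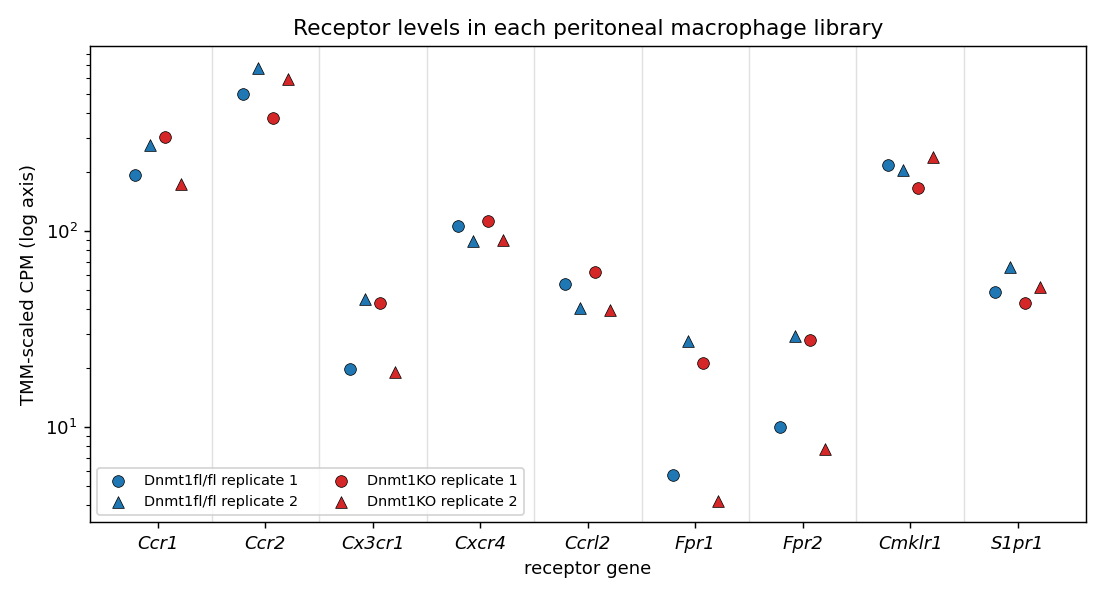
TMM-scaled CPM of each receptor on a log axis, with a point for each library, blue for Dnmt1fl/fl and red for Dnmt1KO, circles for replicate 1 and triangles for replicate 2. Points of the 2 genotypes overlap for all 9 receptors, and those of Fpr1 spread from 4.24 to 27.6 CPM.

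Among the chemokine receptors proper, Ccr2, the receptor for Ccl2 and Ccl7 that brings inflammatory monocytes into tissue, had the most reads. It measured 498 and 682 CPM in Dnmt1fl/fl and 376 and 594 CPM in Dnmt1KO. The lowest library was Dnmt1KO replicate 1 and the highest Dnmt1fl/fl replicate 2, and the genotypes alternated in order. The means were 590 ± 130 CPM in Dnmt1fl/fl and 485 ± 154 CPM in Dnmt1KO (SD, n = 2 each), a log2 fold change of -0.28 with a standard error of 0.32 and a 95% interval from -1.09 to 0.52. A 1.37-fold difference within Dnmt1fl/fl and a 1.58-fold difference within Dnmt1KO were both larger than the distance between the means.

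Ccr1, a receptor for Ccl3, Ccl5, Ccl6 and Ccl9 on monocytes and neutrophils, measured 193 and 274 CPM in Dnmt1fl/fl and 302 and 174 CPM in Dnmt1KO. Both the highest and the lowest value belonged to Dnmt1KO, so the Dnmt1fl/fl libraries lay inside the Dnmt1KO range. With means of 234 ± 56.9 and 238 ± 90.4 CPM (SD, n = 2 each) the log2 fold change was 0.026, with a standard error of 0.35 and a 95% interval from -0.84 to 0.90. Its sign turned with the scaling, to -0.07 on library totals without TMM.

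Cx3cr1, the only receptor for fractalkine (Cx3cl1), measured 19.7 and 45.3 CPM in Dnmt1fl/fl and 43.0 and 19.2 CPM in Dnmt1KO. Each genotype therefore had a library near 20 and a library above 40 CPM, 2.30-fold apart in Dnmt1fl/fl and 2.24-fold apart in Dnmt1KO. Means of 32.5 ± 18.1 and 31.1 ± 16.8 CPM (SD, n = 2 each) gave a log2 fold change of -0.07, with a standard error of 0.53 and a 95% interval from -1.38 to 1.25. Of its exon bases, 78 are overlapped by Gm33858 on the opposite strand, and the source of reads there cannot be told apart without strand.

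Cxcr4, the receptor for Cxcl12 that holds leukocytes in the bone marrow, was among the steadiest members. It measured 106 and 89.5 CPM in Dnmt1fl/fl and 112 and 90.5 CPM in Dnmt1KO. In both genotypes replicate 1 was the higher, by 1.18-fold and 1.24-fold, and the values of the genotypes alternated. The means of 97.6 ± 11.5 and 101 ± 15.5 CPM (SD, n = 2 each) gave a log2 fold change of 0.056 with a standard error of 0.24 and a 95% interval from -0.54 to 0.65. On library totals without TMM the sign turned, at -0.02.

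Ccrl2 and Cmklr1 share a ligand, chemerin, which is encoded by Rarres2. Ccrl2 is an atypical receptor that binds and presents chemerin without classical G protein signalling, while Cmklr1 signals and drives migration. Ccrl2 measured 53.9 and 40.8 CPM in Dnmt1fl/fl and 62.0 and 39.6 CPM in Dnmt1KO. Its highest and lowest values were both in Dnmt1KO, and the means of 47.4 ± 9.30 and 50.8 ± 15.9 CPM (SD, n = 2 each) gave a log2 fold change of 0.10 with a standard error of 0.30 and a 95% interval from -0.64 to 0.85. Cmklr1 measured 218 and 206 CPM in Dnmt1fl/fl and 166 and 238 CPM in Dnmt1KO. The Dnmt1fl/fl libraries were only 1.06-fold apart and lay inside the 1.44-fold range of Dnmt1KO. Means of 212 ± 8.81 and 202 ± 51.4 CPM (SD, n = 2 each) gave a log2 fold change of -0.07 with a standard error of 0.26 and a 95% interval from -0.73 to 0.58.

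The formyl peptide receptors showed the widest spread between replicates. Fpr1, the high-affinity receptor for formylated bacterial peptides, measured 5.75 and 27.6 CPM in Dnmt1fl/fl and 21.4 and 4.24 CPM in Dnmt1KO, from 118, 692, 424 and 100 counts. Dnmt1fl/fl replicate 2 and Dnmt1KO replicate 1 were high and the other two low, 4.80-fold apart within Dnmt1fl/fl and 5.05-fold apart within Dnmt1KO. Its means of 16.7 ± 15.4 and 12.8 ± 12.1 CPM (SD, n = 2 each) gave a log2 fold change of -0.38, with a standard error of 0.95 and a 95% interval from -2.75 to 1.98, the widest of the 9 members.

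Fpr2, which also binds annexin A1 and serum amyloid A, followed the same order of libraries, at 10.1 and 29.2 CPM in Dnmt1fl/fl and 28.0 and 7.75 CPM in Dnmt1KO. The high and low libraries were 2.89-fold apart in Dnmt1fl/fl and 3.61-fold apart in Dnmt1KO, and the genotypes alternated in order. Means of 19.6 ± 13.5 and 17.9 ± 14.3 CPM (SD, n = 2 each) gave a log2 fold change of -0.14 with a standard error of 0.73 and a 95% interval from -1.95 to 1.67. Part of the Fpr2 count is uncertain, since 12.3% of its exonic stretches of 100 bases also occur in Gm5966 or another gene and 48 exon bases are shared with Fpr3 on the same strand.

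S1pr1, a receptor for the lipid sphingosine-1-phosphate best known for the exit of lymphocytes from lymph nodes, measured 48.7 and 65.5 CPM in Dnmt1fl/fl and 42.8 and 52.2 CPM in Dnmt1KO. The lower Dnmt1fl/fl library lay between the Dnmt1KO libraries. Means of 57.1 ± 11.9 and 47.5 ± 6.67 CPM (SD, n = 2 each) gave a log2 fold change of -0.27, with a standard error of 0.25 and a 95% interval from -0.89 to 0.36.

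**Figure D2:**
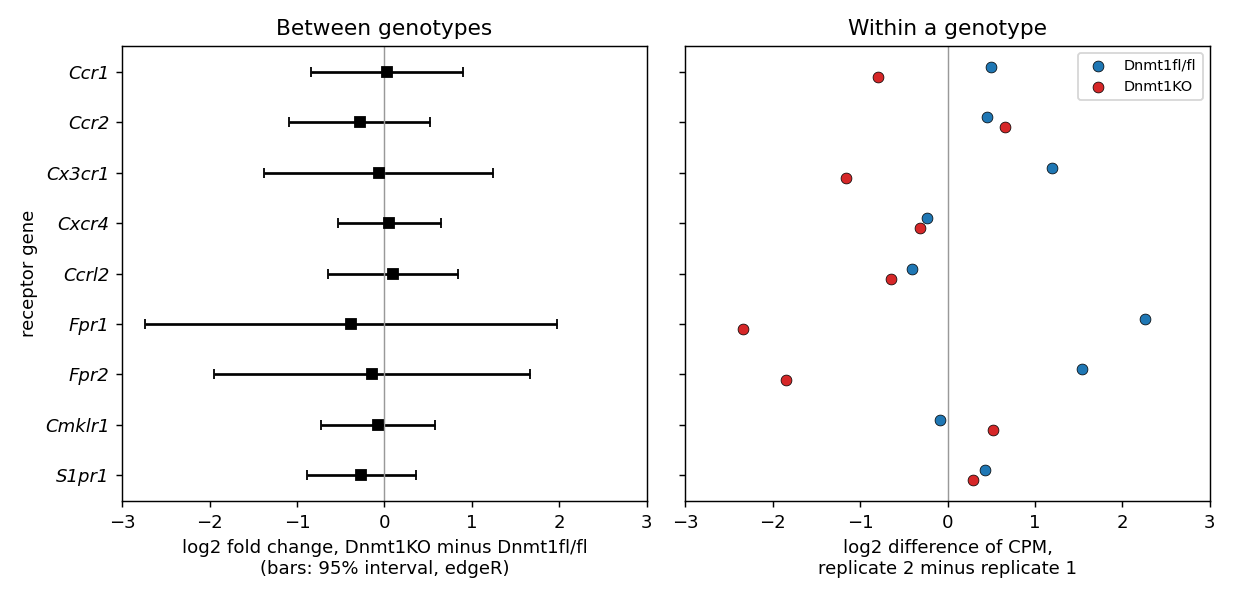
Log2 fold change of each receptor, Dnmt1KO over Dnmt1fl/fl, as a point with its 95% interval from edgeR's quasi-likelihood fit, beside the difference in log2 CPM between the 2 libraries within each genotype. All 9 intervals include 0, from the narrowest in Cxcr4 to that of Fpr1, which runs from -2.75 to 1.98.

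The members fell into differing orders across the 4 libraries. Fpr1, Fpr2, Cx3cr1 and Ccr1 were higher in Dnmt1fl/fl replicate 2 than in replicate 1 and higher in Dnmt1KO replicate 1 than in replicate 2, by 2.26 and 2.34 (log2) for Fpr1, 1.53 and 1.85 for Fpr2, 1.20 and 1.16 for Cx3cr1 and 0.50 and 0.79 for Ccr1. Ccr2 and S1pr1 were higher in replicate 2 of both genotypes, whereas Cxcr4 and Ccrl2 were higher in replicate 1 of both. For Cmklr1 the Dnmt1fl/fl libraries were nearly level, and the Dnmt1KO libraries differed by 0.53 (log2). Dnmt1KO replicate 1 held the lowest level of Ccr2, S1pr1 and Cmklr1 and the highest of Ccr1, Cxcr4 and Ccrl2. Across all genes tested, the Dnmt1KO libraries were the less alike, with 2367 genes (18.9%) at least 2-fold apart against 693 genes (5.53%) within Dnmt1fl/fl.

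Over the 36 pairs of members, the pattern of Cxcr4 was closest to that of Ccrl2, with a root mean square distance of 0.132 (log2 CPM centred on each gene's mean, over the 4 libraries), followed by Ccr2 and S1pr1 at 0.134. Fpr1 and Cmklr1 were farthest apart, at 1.32.

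**Figure D3:**
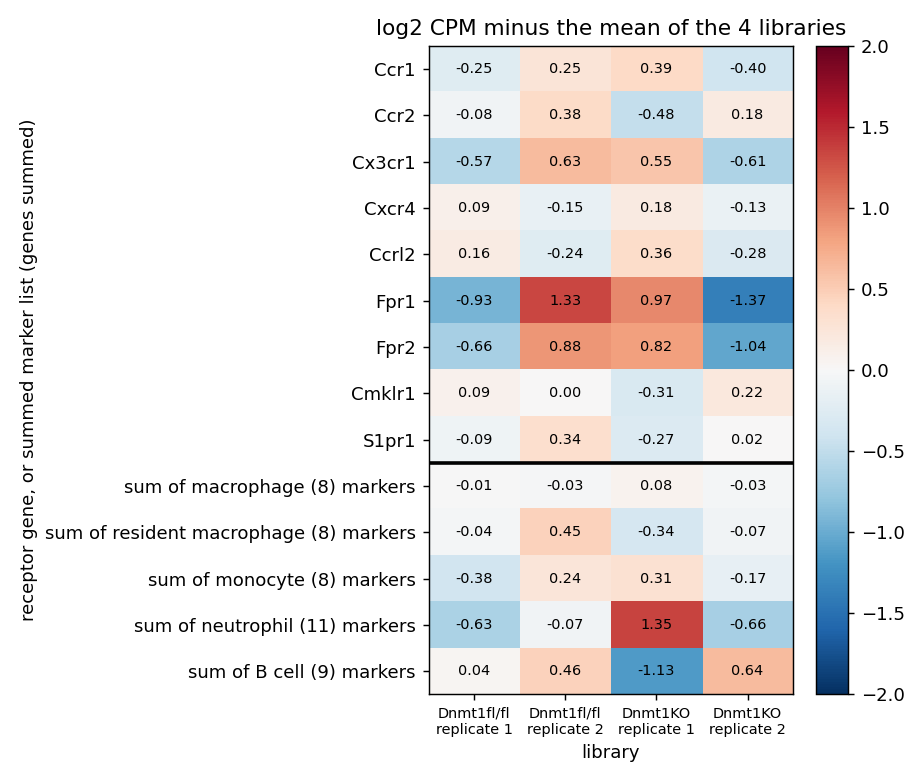
Log2 CPM of each receptor, and below the line of the summed markers of 5 cell types, in each library, minus the mean over the 4 libraries, as colour (red above, blue below the mean) and as printed values. Fpr1, Fpr2, Cx3cr1 and Ccr1 are above their mean in Dnmt1fl/fl replicate 2 and Dnmt1KO replicate 1 and below it in the other two libraries, as is the monocyte marker sum.

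Markers of the cell types that an elicited lavage can hold also differed between the libraries. The summed level of 8 monocyte markers was 700.1 and 1072 CPM in Dnmt1fl/fl and 1123 and 806 CPM in Dnmt1KO, so it was higher in the same libraries as Fpr1, Fpr2, Cx3cr1 and Ccr1, with Chil3, a secreted lectin, at 273 and 475 CPM and then 493 and 263 CPM. F13a1, another monocyte marker, did not share that order, at 304 and 248 CPM in Dnmt1fl/fl and 170 and 381 CPM in Dnmt1KO. Neutrophil markers, of which 11 of 12 were found and Ngp was not analysed here, summed to 241 and 356 CPM in Dnmt1fl/fl and to 951 and 235 CPM in Dnmt1KO. S100a9, a calprotectin subunit abundant in neutrophils, accounted for much of the excess, at 5.55 and 60.5 CPM and then 320.1 and 8.35 CPM, while Csf3r, the G-CSF receptor, stayed between 137 and 169 CPM. All 11 neutrophil markers were higher in Dnmt1KO replicate 1 than in Dnmt1KO replicate 2, while 6 of the 11 were higher in Dnmt1fl/fl replicate 2 than in Dnmt1fl/fl replicate 1, and the sum of all 11 was higher in both of those libraries, as Fpr1 was. Of the 8 monocyte markers, 7 were higher in Dnmt1fl/fl replicate 2, 6 were higher in Dnmt1KO replicate 1, and 6 were both. Between the high libraries, Fpr1 and Fpr2 were somewhat higher in Dnmt1fl/fl replicate 2, whereas S100a9 was higher in Dnmt1KO replicate 1. The part of these cell types in the receptor levels was not tested.

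Resident peritoneal macrophage markers, all 8 found, summed to 916 and 1294 CPM in Dnmt1fl/fl and 745 and 902 CPM in Dnmt1KO. They were led by Cd5l, a secreted macrophage protein (662, 1016, 624 and 664 CPM), and Timd4, a receptor for apoptotic cells (91.4, 140.5, 67.6 and 78.8 CPM). The sum, most of it Cd5l, was highest in Dnmt1fl/fl replicate 2 and lowest in Dnmt1KO replicate 1, as were Ccr2 and S1pr1, but only 4 of the 8 markers were higher in Dnmt1fl/fl replicate 2 than in replicate 1, while 0 of the 8 were higher in Dnmt1KO replicate 1 than in replicate 2. B cell markers, all 9 found and led by Ighm (196, 286, 89.6 and 309 CPM) and Cd22 (81.0, 53.7, 54.0 and 82.5 CPM), summed to 431, 577, 192 and 656 CPM. Their lowest library was also that of Ccr2, S1pr1 and Cmklr1. T and NK cell markers, all 9 found, summed to 372, 296, 345 and 300.3 CPM, most of it Il7r, at 333, 225, 300 and 246 CPM. The other 8, among them Cd2 at 15.2, 28.4, 11.0 and 23.3 CPM, summed to 38.5, 70.4, 45.1 and 53.9 CPM, and 8 of the 9 markers were higher in Dnmt1fl/fl replicate 2 than in replicate 1. As for the cell types above, the part of these in the receptor levels was not tested.

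Levels of different receptors were compared per kilobase of exon, as mean CPM per kb over the 4 libraries. The length was the union of all annotated exons of a gene, and the order under another length was not tested. Ccr1 (83.2) and Ccr2 (79.5) stood highest, followed by Cmklr1 (60.8), Cxcr4 (55.0), Ccrl2 (18.9), S1pr1 (17.2), Fpr2 (14.5), Fpr1 (11.1) and Cx3cr1 (7.06). The order has a single clear step, between Cxcr4, which ranged from 49.5 to 62.2 CPM per kb, and Ccrl2, which ranged from 15.2 to 23.9. All other neighbours in the order had overlapping ranges. Ccr1 exceeded Ccr2 in only 1 of the 4 libraries, Dnmt1KO replicate 1, and Fpr1 exceeded Cx3cr1 in 2. Fpr2 exceeded Fpr1, and Ccr2 exceeded Cmklr1, in all 4 libraries although their ranges overlapped.

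Ratios of receptors within a library do not depend on the scaling between libraries. They were compared by CPM for 5 pairs, and with 2 libraries a genotype an exact permutation test cannot give a p below 0.333. Ccr2 over Cx3cr1, the usual contrast of inflammatory and patrolling monocytes, was 25.2 and 15.1 in Dnmt1fl/fl and 8.75 and 31.0 in Dnmt1KO. The Dnmt1KO libraries thus held both the lowest and the highest ratio, and the mean log2 ratio differed by -0.24 (exact permutation test, two-sided, p = 1). Fpr2 over Fpr1 was the narrowest, at 1.75 and 1.06 in Dnmt1fl/fl and 1.31 and 1.83 in Dnmt1KO, and its mean log2 ratio differed by 0.18 (exact permutation test, two-sided, p = 0.667).

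Ccr1 over Ccr2 was 0.388 and 0.402 in Dnmt1fl/fl and 0.803 and 0.293 in Dnmt1KO, a difference of 0.30 in log2 ratio (exact permutation test, two-sided, p = 1). Ccrl2 over Cmklr1, the presenting against the signalling chemerin receptor, was 0.247 and 0.198 in Dnmt1fl/fl and 0.375 and 0.166 in Dnmt1KO, a difference of 0.17 (exact permutation test, two-sided, p = 1). Cxcr4 over S1pr1, receptors with opposed roles in keeping and releasing leukocytes, was 2.17 and 1.37 in Dnmt1fl/fl and 2.63 and 1.73 in Dnmt1KO, a difference of 0.31 (exact permutation test, two-sided, p = 0.667). In each of the 5 pairs the genotypes overlapped, and all p-values were 1 after Benjamini-Hochberg adjustment over the 5 exact permutation tests.

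The genes of 6 receptors lie on a chromosome that another member shares. On GRCm38, Ccr1 (chr9:123962124-123968692, minus strand) and Ccr2 (chr9:124101950-124113557, plus strand) lie in the chemokine receptor cluster of chromosome 9. Farther off on the same chromosome lie Ccrl2 (chr9:111054486-111057519, minus strand) and Cx3cr1 (chr9:119901616-120069879, minus strand). Fpr1 (chr17:17876471-17883940, minus strand) and Fpr2 (chr17:17887824-17893952, plus strand) are adjacent on chromosome 17 and point away from each other. Cxcr4 (chr1:128588199-128592293), Cmklr1 (chr5:113612354-113650426) and S1pr1 (chr3:115710433-115715072), all on the minus strand, stand alone. The adjacent Fpr1 and Fpr2 had the same order of libraries, while Ccr1 and Ccr2, of the same cluster, had different lowest and highest libraries. Whether position goes with pattern was not tested.

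Dnmt1 keeps methylation at CG dinucleotides, so the CG content of the promoters was read from RefSeq, although no methylation was measured in these libraries. Promoters here are 300 bases, 250 before and 50 after the annotated start, and 8 of the 9 members had an entry. The promoters of 4 are shown, with every CG in capitals and all else in lower case, 5′ to 3′ on the strand of the gene (GRCm38.p6): those of the 3 receptors that were at least 2-fold apart within both genotypes, and that of Cxcr4, whose libraries were close and whose promoter held the most CG. They are Fpr1 (chr17:17883890-17884189, minus strand), Fpr2 (chr17:17887574-17887873, plus strand), Cx3cr1 (chr9:120068247-120068546, minus strand) and Cxcr4 (chr1:128592250-128592549, minus strand). The choice of these 4 rests on their values, and a link of CG content with the spread between libraries was not tested.
Fpr1: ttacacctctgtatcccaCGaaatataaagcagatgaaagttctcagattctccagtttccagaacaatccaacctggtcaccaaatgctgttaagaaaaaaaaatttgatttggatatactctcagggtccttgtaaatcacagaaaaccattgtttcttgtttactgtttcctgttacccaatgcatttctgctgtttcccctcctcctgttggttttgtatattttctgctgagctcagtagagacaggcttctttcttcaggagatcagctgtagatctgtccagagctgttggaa
Fpr2: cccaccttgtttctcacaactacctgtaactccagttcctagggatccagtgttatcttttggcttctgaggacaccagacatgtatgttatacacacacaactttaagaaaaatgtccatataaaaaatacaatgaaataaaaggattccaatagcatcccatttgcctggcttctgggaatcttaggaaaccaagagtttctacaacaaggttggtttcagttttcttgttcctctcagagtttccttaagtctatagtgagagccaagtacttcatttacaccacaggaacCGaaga
Cx3cr1: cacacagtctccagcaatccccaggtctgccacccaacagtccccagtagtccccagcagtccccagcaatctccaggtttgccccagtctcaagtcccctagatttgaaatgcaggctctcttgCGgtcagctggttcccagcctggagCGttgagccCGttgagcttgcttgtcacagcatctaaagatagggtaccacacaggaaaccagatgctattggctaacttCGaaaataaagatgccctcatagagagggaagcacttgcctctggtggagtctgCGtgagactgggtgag
Cxcr4: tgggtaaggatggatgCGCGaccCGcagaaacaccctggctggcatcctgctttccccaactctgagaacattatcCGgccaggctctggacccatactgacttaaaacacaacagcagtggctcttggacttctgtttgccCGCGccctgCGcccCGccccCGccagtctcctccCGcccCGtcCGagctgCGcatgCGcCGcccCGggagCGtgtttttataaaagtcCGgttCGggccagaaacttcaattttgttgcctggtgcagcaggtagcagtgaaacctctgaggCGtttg

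The promoters of Fpr1, Fpr2, Ccr1 and Ccr2 each held 1 CG, and only 5.43% of the 32851 RefSeq promoters of this length held fewer. Cx3cr1 held 5 CG, Cmklr1 8 and the 3 entries of Ccrl2 8, 8 and 6, around the median of 7 over all promoters. Cxcr4 held 20 CG, equal to the upper quartile of all promoters. All of these receptors had log2 fold changes with intervals that include 0. That sets no promoter apart, since only 0.279% of all genes tested had an unadjusted p under 0.05 in edgeR. A link of CG content with the genotype difference was not tested. GAGGAA, the core letters bound by the myeloid factor PU.1, occurred on either strand in the promoters of Ccr1, Cmklr1 and Fpr2, as in 28.3% of all promoters. TATAAA occurred on either strand in those of Fpr1, Fpr2 and Cxcr4 and in 13.6% of all promoters, and TTGCNNAA, a C/EBP core, in none of the members and in 10.8% of all. The 2 TATAAA matches of Cxcr4 overlap each other on opposite strands, no other matches overlap, and a match describes the sequence only.

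The remaining genes of the pathway were taken from 3 lists of known family members, ligands and signalling genes. Of 39 symbols of other chemoattractant receptors, 29 were in the table and 25 were tested, and 0 rose and 0 fell at an unadjusted p under 0.05 in edgeR, beside the 0.279% of all genes. Their median log2 fold change was -0.06, against 0.0046 over all genes, and 1 of the 25, Cxcr3, had genotypes that did not overlap, beside the 16.7% of all genes. Well expressed members of the list were C3ar1, the receptor for the complement fragment C3a (957 and 915 CPM in Dnmt1fl/fl, 1095 and 951 CPM in Dnmt1KO), and Ptafr, the receptor for platelet-activating factor (648 and 517 CPM, then 471 and 650 CPM). Cxcr2, the neutrophil receptor for Cxcl1 and Cxcl2, was singled out after its values were seen and measured 2.63 and 12.6 CPM in Dnmt1fl/fl and 35.8 and 3.05 CPM in Dnmt1KO, so its high libraries were those of Fpr1, but with Dnmt1KO replicate 1 the higher of them.

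Ligands of the receptors, and enzymes that make or remove them, were the next list. Of its 19 genes, 18 were in the table and 17 were tested, 0 rose and 0 fell at an unadjusted p under 0.05 in edgeR, and the median log2 fold change was 0.10. The genotypes did not overlap for 1 of the 17, Sphk2, a sphingosine kinase. The shares over all genes were 0.279% for the first count and 16.7% for the second. Ccl6, a ligand of Ccr1, was the most abundant, at 3083 and 4518 CPM in Dnmt1fl/fl and 4562 and 3850 CPM in Dnmt1KO. Ccl9, also a Ccr1 ligand, measured 1300 and 1720 CPM and then 2015 and 1207 CPM, with the high libraries those in which Ccr1 was high. Anxa1, which encodes annexin A1, the ligand of Fpr2, measured 1410 and 1333 CPM and then 1627 and 1023 CPM.

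Downstream, 38 genes of G protein signalling and cell migration were tested, listed under 40 symbols of which Adrbk1 and Adrbk2 are older names of Grk2 and Grk3. At an unadjusted p under 0.05 in edgeR 0 were higher and 1 was lower in Dnmt1KO, beside the 0.279% of all genes, and the median log2 fold change was 0.02. Genotypes did not overlap for 4 of the 38, with Rgs10 and Pik3r5 higher and Rgs1 and Rgs18 lower in Dnmt1KO, beside the 16.7% of all genes. Small GTPases and the Gi subunit were abundant in every library, with Rhoa between 784 and 1295 CPM, Cdc42 between 747 and 1098 CPM and Gnai2 between 742 and 1056 CPM. The gene below that threshold was Rgs1, a GTPase-activating protein that shortens Gi signalling from chemokine receptors. It measured 394 and 272 CPM in Dnmt1fl/fl and 185 and 118 CPM in Dnmt1KO, and the genotypes did not overlap. The means were 333 ± 86.4 and 151 ± 47.7 CPM (SD, n = 2 each). Its log2 fold change was -1.14 with a standard error of 0.33 and a 95% interval from -1.97 to -0.31, and an unadjusted p of 0.0155 in edgeR's quasi-likelihood test became an adjusted p of 1.00 after Benjamini-Hochberg adjustment over all genes. The log2 fold change of Rgs1 was -0.85 without Dnmt1fl/fl replicate 1 and -1.375 without Dnmt1fl/fl replicate 2. It was -1.505 without Dnmt1KO replicate 1 and -0.85 without Dnmt1KO replicate 2, each fit resting on a lone library in a genotype.

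**Figure D4:**
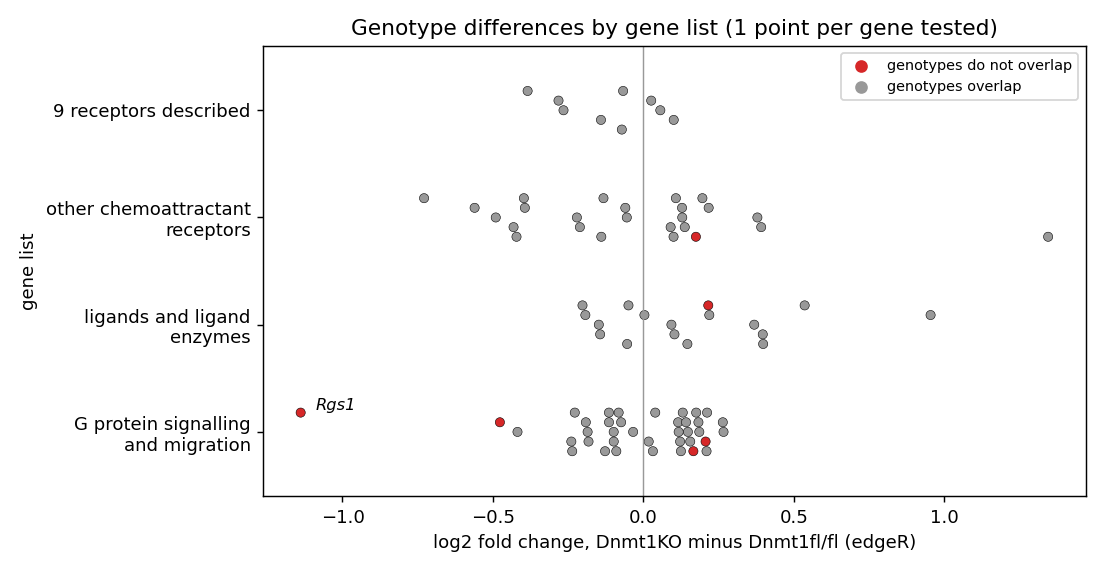
Log2 fold change, Dnmt1KO over Dnmt1fl/fl, of every tested gene of the 9 receptors, the other chemoattractant receptors, the ligands and the G protein signalling and migration genes, with a point for each gene, red where the genotypes did not overlap and grey where they did. No point of the 9 receptors is red, and Rgs1, at -1.14, is the gene of these lists with an unadjusted p under 0.05.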

How the data were processed

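RNA-seq libraries of peritoneal macrophages (2 Dnmt1fl/fl, 2 Dnmt1KO) were made by the authors with a NEBNext Ultra kit. Per the submitters' processing notes, reads were aligned with HISAT2 2.0.5 to mm10 and counted with featureCounts 1.5.0-p3, and DESeq2 1.20.0 was run; the annotation and strand setting are not given in the sources used here. The deposited table holds estimated counts, of which 72.6% to 76.4% per library were whole numbers, and how the fractions arose is not given in the sources used here; values were rounded for the tests. A second deposited table repeats part of these genes and was not used. Counts were normalized by TMM, filtered by filterByExpr (12542 of 13834 genes kept, none at 0 in any library) and fitted with edgeR 4.0.16 (quasi-likelihood, genotype as the only term, Benjamini-Hochberg adjustment over all genes; biological coefficient of variation 28.9%). Standard errors were derived from the quasi-likelihood statistic. Exon lengths, positions and shared stretches came from GENCODE M21, and promoters from RefSeq. Ratios were compared by exact permutation tests in SciPy 1.17.1. The members, the pathway lists and the cell type markers were chosen with earlier results of these data known. Named genes were all members, from each pathway list those with an unadjusted p under 0.05 and the 3 with the highest mean CPM, and from each marker list the 2 highest, except 1 gene that is not reported here; others are said to be chosen after their values were seen or are named where a count of 5 or fewer includes them. Alternatives were library totals in place of TMM, no filter, a minimum of 10 counts in every library, a replicate block, each library left out in turn, limma-voom (limma 3.58.1) and DESeq2 1.42.0, with others added after seeing the data. The code was tested on simulated data. With 2 libraries a genotype, single values cannot reach an exact p below 0.333.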

Additional observations from a re-analysis of the deposited data

How the results depend on the processing

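No receptor passed an adjusted p of 0.05 in edgeR, DESeq2 or limma-voom under any alternative: the lowest adjusted p was 1.00 over 54 fits of single receptors with all 4 libraries and 0.146 over 36 edgeR fits without 1 library. With all libraries, 3 of the 54 turned direction: Ccr1 to -0.074 and Cxcr4 to -0.023 (log2) on library totals without TMM, and Ccr1 to -0.0061 with a replicate block. Replicate numbers do not pair the samples by the labels, and same-numbered samples deviated in opposite directions (correlation across genes -0.40); the replicate block left 0 genes past the threshold, and Fpr1 at -0.40 and Ccr2 at -0.30. A crossed pairing, added after seeing the data, gave 3 genes past the threshold and 297 at an unadjusted p under 0.05. The count of genes past an adjusted p of 0.05 was 0 in edgeR, with 35 at an unadjusted p under 0.05, and 1 in DESeq2, with 39; limma-voom gave 0 and 40. Leaving out 1 library, added after seeing the data for this count, gave from 0 to 674 genes: 674 without Dnmt1KO replicate 2, 8 without Dnmt1fl/fl replicate 2, 2 without Dnmt1fl/fl replicate 1 and 0 without Dnmt1KO replicate 1. In these fits the lone library is assumed to vary like those of the other genotype. Leaving out 1 library also turned 14 of the 36 receptor values. The log2 fold changes then ran from -0.43 to 0.37 for Ccr1, -0.65 to 0.0072 for Ccr2, -0.77 to 0.66 for Cx3cr1, -0.11 to 0.20 for Cxcr4, -0.26 to 0.39 for Ccrl2, -1.98 to 1.16 for Fpr1, -1.35 to 0.83 for Fpr2 and -0.36 to 0.16 for Cmklr1, while S1pr1 kept its direction, from -0.46 to -0.03. The log2 ratios, for which no test was run without 1 library, ran from -1.16 to 0.67 for Ccr2 over Cx3cr1, -0.43 to 1.02 for Ccr1 over Ccr2, -0.18 to 0.55 for Fpr2 over Fpr1, -0.41 to 0.76 for Ccrl2 over Cmklr1 and -0.025 to 0.64 for Cxcr4 over S1pr1. Receptors with non-overlapping genotypes numbered 0 under every scaling. Without 1 library, also added after seeing the data for this second count, they numbered from 0 to 6. There a lone library lies outside the other 2 in 39.6% to 82.9% of all genes tested. The causes were not tested. The members had at least 100 counts in each library, and the size of counting error beside the spread between libraries was not tested.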

Other observations

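Markers of rarer cells of the cavity were low in every library. Of 5 eosinophil markers, 3 were found (Epx and Prg2 were not analysed here) and summed to 14.1 and 10.1 CPM in Dnmt1fl/fl and 7.68 and 11.1 CPM in Dnmt1KO, with the eotaxin receptor Ccr3 at 7.60, 4.35, 1.87 and 5.30 CPM and Siglecf at 4.19, 3.87, 5.60 and 3.14 CPM. Mast cell markers, all 5 found, summed to 8.33, 6.70, 6.41 and 6.57 CPM, led by Cpa3 (3.85, 2.75, 2.02 and 2.46 CPM) and Kit (2.29, 1.87, 1.52 and 2.33 CPM). Dendritic cell markers, all 6 found, summed to 37.3, 33.9, 19.9 and 46.1 CPM, with Cd209a at 20.4, 17.0, 9.04 and 21.2 CPM and Flt3 at 7.65, 6.94, 5.35 and 11.0 CPM, and were lowest in Dnmt1KO replicate 1, as were Ccr2, S1pr1 and Cmklr1. Gata6, the transcription factor of resident peritoneal macrophages, was singled out after its values were seen and measured 4.63, 5.34, 3.43 and 5.81 CPM.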
